A study of Mus musculus with 13 samples.

Results

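The genes described here make, sense, move and export cholesterol or control its uptake. They were compared between liver tumours of mice without mir-122 and livers of control mice. A list of 30 genes was used, and 27 of them could be measured among the 18193 genes of the arrays, each through the brightest of its probe sets on average. Acat2, Soat1 and Soat2 were not analysed here. The measured genes fall into 4 arms: 6 of the mevalonate arm, 11 of the sterol arm (together the 17 synthesis genes), 6 of uptake and control, and 4 of export. No lipoprotein receptor is among the 6 of uptake and control.

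The study compared RNA of 8 tumours of mir-122 knockout mice with RNA of 5 livers of wild-type mice, all on a B6/129 background. KO_tumor_11M holds 3 tumours at 11 months, KO_tumor_14M 5 tumours at 14 months, control_liver_11M 2 livers at 11 months and control_liver_14M 3 livers at 14 months. All samples were frozen liver tissue, and each was put on a one-colour Affymetrix array. No knockout liver without a tumour was analysed here, so the genotype and the tumour cannot be told apart. The labels do not state whether each tumour is from its own mouse, and p-values measure the spread between these samples. The titles of KO_tumor_14M replicates 1 and 2 lack the number that the other tumour titles carry. Their arrays correlated at 0.9866, the highest of the tumour pairs, with 0.9864 next. Whether they come from 1 mouse is not stated, and a fit with the 2 averaged is among the alternatives given below. mir-122 is a microRNA made in hepatocytes, and the labels do not say in which cells it was deleted. Its own transcript was not measured.

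Cholesterol is built from acetyl units. The mevalonate arm carries them to isoprenoid diphosphates, and the sterol arm starts with squalene, closes the ring and trims it to cholesterol. When sterols in the endoplasmic reticulum run low, the transcription factor made from Srebf2 is carried away by Scap, is cleaved, and switches on the synthesis genes; Insig proteins hold the complex back when sterols are plentiful. Liver also sends cholesterol out, through ABC transporters into bile and lipoproteins, and turns it into bile acids.

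Values are log2 levels from robust multi-array analysis (RMA), so a difference of 1 is a 2-fold change. Levels of different genes are not compared with each other, since a probe set's brightness depends on its sequence. A gene is said to have risen or fallen where its adjusted p was under 0.05 in the limma fit described under the processing, with the ages weighted equally. Hepatocyte markers were high in all samples: the summed log2 level of 7 was 16.57 to 16.85 in tumours and 16.81 to 16.87 in controls, with 1 of them lower and 0 higher. Several, such as Alb and Ttr, lie near the highest level on the arrays (14.58 to 14.84), so the sum does not measure the share of hepatocytes. Summed levels overlapped between tumours and controls for macrophage markers (11.72 to 13.45 in tumours, 12.16 to 12.48 in controls, 2 of 8 higher), stellate cell markers (11.19 to 13.78 in tumours, 11.64 to 11.95 in controls, 4 of 7 higher and 1 lower), endothelial markers (9.72 to 11.39 in tumours, 10.94 to 11.30 in controls, 1 of 6 higher) and cholangiocyte markers (7.12 to 8.80 in tumours, 7.24 to 7.72 in controls, 0 of 4 either way). Lymphocyte markers summed to 9.30 to 10.99 in tumours and 8.50 to 9.13 in controls, without overlap. That sum is carried by Ptprc, a marker of all leukocytes and the 1 of 6 that was higher (8.75 to 10.74 in tumours, against 7.55 to 8.43 in controls). The mean log2 level of the 6 overlapped, at 5.70 to 6.69 in tumours and 5.41 to 5.81 in controls. The part of these markers in the results was not tested. In tissue RNA, fewer cells of a type and less RNA per cell cannot be told apart.

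With the ages combined, 13 of the 27 genes fell in tumours, 1 rose and 13 did not pass the test. Over all 18193 genes 9.81% fell and 10.3% rose, 20.1% in all. The list was chosen with earlier results of these data known, so these shares are given as a description. The median log2 fold change was -1.01 over the 27 genes and -0.05 over all genes, and 25 of the 27 fold changes were negative. By arm, 4 of 6 mevalonate genes fell (median -1.65), 6 of 11 sterol genes fell (median -1.34), 3 of 6 uptake and control genes fell (median -0.63), and 1 of 4 export genes rose (median 0.23). Every tumour lay below every control for 4 of the 27 genes (Mvk, Tm7sf2, Ebp and Scap) against 5.07% of all genes, and above every control for 1 (Abcg1) against 6.22%. The plot of levels by array shows a single tumour that lay within or above the control range for most synthesis genes.

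**Figure D1:**
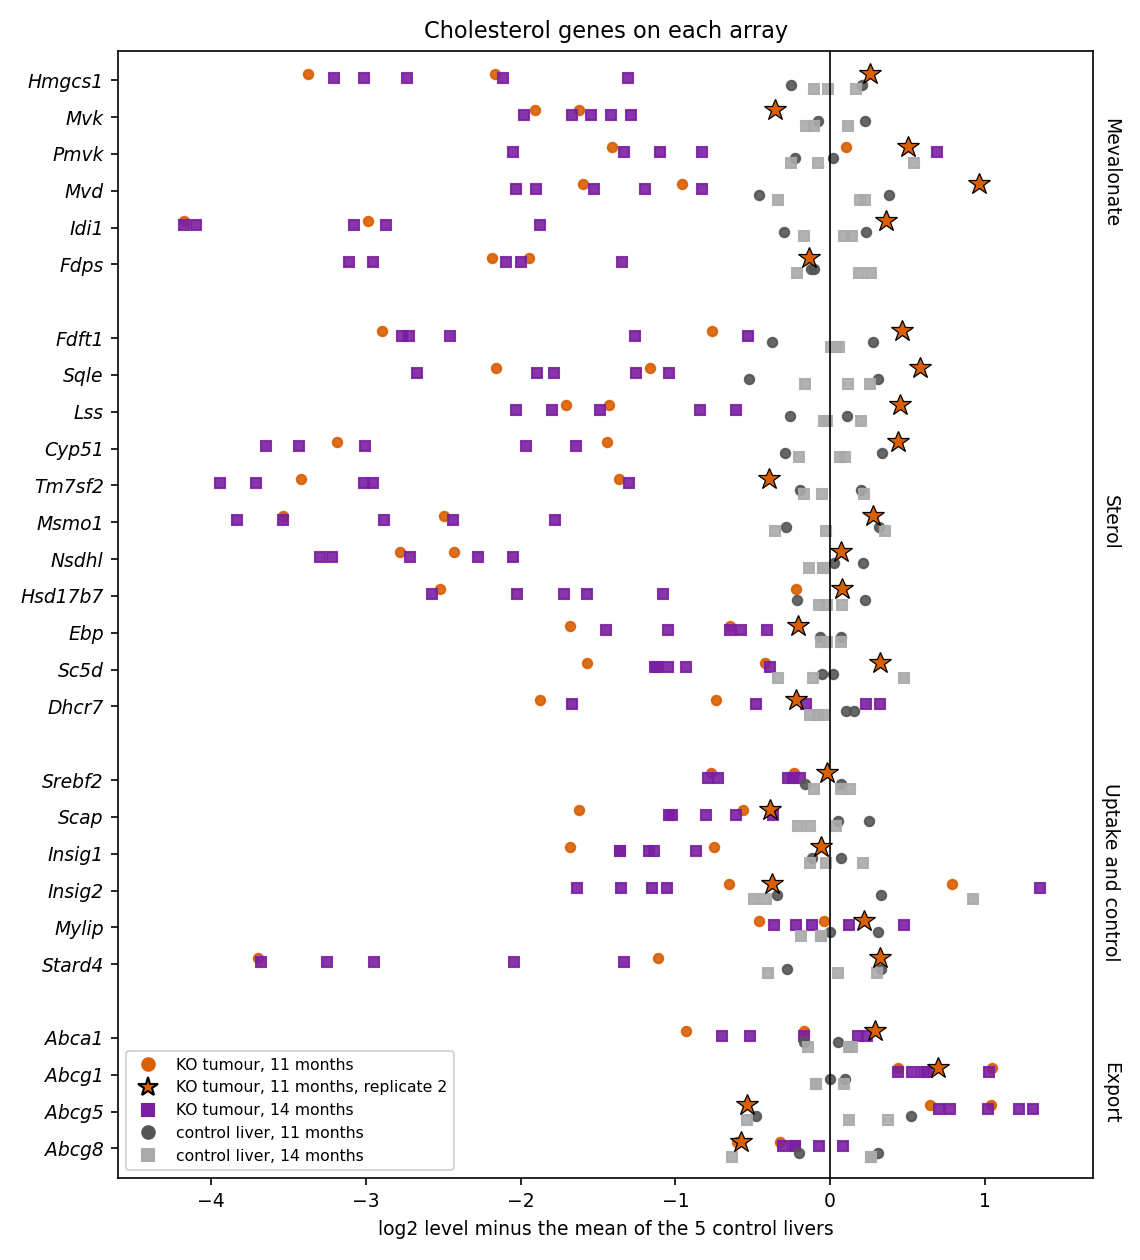
Log2 level of each of the 27 genes on each array, minus the mean of the 5 control livers, by arm; orange and purple points are knockout tumours at 11 and 14 months, dark and light grey points control livers at the same ages, and the star is KO_tumor_11M replicate 2. Most tumours lie 1 to 4 log2 units left of the controls in the synthesis arms, while the star lies near or right of 0.

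That tumour was KO_tumor_11M replicate 2. Of the 17 synthesis genes it was below all controls in 4, within their range in 6 and above all of them in 7, with a median difference of 0.27 from the control mean. The other 7 tumours were below all controls in 15 to 17 of the 17 genes, with medians from -2.67 (KO_tumor_14M replicate 3) to -1.26 (KO_tumor_14M replicate 5). KO_tumor_11M replicate 2 was the highest of the 8 tumours in 15 of 17 genes, and KO_tumor_14M replicate 3 the lowest in 9. Over all genes, 30.6% of the 18193 were below all controls in it, against 30.9% to 36.4% in the other 7 tumours. It also had the most genes within the control range, 8707 against 6152 to 7851 in the others, and the fewest above it, 3913 against 4571 to 5512. Its summed hepatocyte markers (16.85) were the highest of the tumours and lay within the control range. Its macrophage markers (13.45), cholangiocyte markers (8.80) and endothelial markers (11.39) were also the highest of the tumours, each above every control. Its stellate cell markers (13.15) and lymphocyte markers (10.73) were above every control too, the latter as in all tumours, but were not the highest of the tumours. The part of these markers in its synthesis levels was not tested. Because this tumour was singled out after its values were seen, results without it are given beside those of all arrays as a description.

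Without KO_tumor_11M replicate 2, 15 of the 17 synthesis genes fell, 5 of 6 in the mevalonate arm and 10 of 11 in the sterol arm, where 10.3% of all genes fell and 11.1% rose. In all 15 the 7 tumours lay below every control, as for 6.85% of all genes (8.11% lay above). The omitted tumour was picked from the levels of the synthesis genes, which favours such counts for them but not for all genes. The median of the synthesis genes was -1.68 without it, against -1.45 with all arrays. The 2 that did not pass were Pmvk and Dhcr7.

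The mevalonate arm opens with Hmgcs1, the synthase that joins acetyl units to HMG-CoA. Hmgcs1 was at 10.42, 12.84 and 9.21 in the tumours at 11 months and at 9.38, 9.85, 9.57, 11.28 and 10.47 at 14 months, against 12.79 and 12.33 in the control livers at 11 months and 12.48, 12.57 and 12.75 at 14 months. All tumours but KO_tumor_11M replicate 2 lay below the controls, and that one lay above them. The log2 fold change was -2.11 (SE 0.54, adjusted p = 0.0189), and -2.62 (adjusted p = 0.000913) without that tumour.

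Mvk, the kinase that phosphorylates mevalonate, was at 6.75, 8.02 and 6.47 in the tumours at 11 months and at 6.71, 6.83, 6.40, 6.96 and 7.09 at 14 months, against 8.60 and 8.30 in the control livers at 11 months and 8.22, 8.49 and 8.27 at 14 months. The groups did not overlap, and the tumour nearest the controls was again KO_tumor_11M replicate 2. Its log2 fold change of -1.45 (SE 0.24, adjusted p = 0.00238) had a 95% interval of -1.97 to -0.93, and Mvk was the one gene of the 14 that passed under all 24 alternatives tried. Both of its probe sets fell.

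Pmvk and Mvd carry out the next phosphorylation and the decarboxylation, and neither passed. Pmvk ranged from 7.12 to 9.86 in tumours, against 8.92 to 9.71 in controls, and its log2 fold change was -0.58 (adjusted p = 0.366) with a 95% interval of -1.56 to 0.40. KO_tumor_14M replicate 2 (9.86) was above all controls for Pmvk, and KO_tumor_11M replicates 2 and 3 (9.67 and 9.27) lay within their range. Mvd ranged from 5.68 to 8.67 in tumours, against 7.25 to 8.09 in controls, with the top of the tumour range in KO_tumor_11M replicate 2. Its fold change was -1.01 (adjusted p = 0.0919), and -1.38 (adjusted p = 0.00509) without that tumour.

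Idi1, the isomerase that makes the second isoprenoid unit, had the most negative fold change of the 27 genes. It was at 9.05, 12.40 and 7.86 in the tumours at 11 months and at 7.86, 8.96, 7.94, 9.17 and 10.16 at 14 months, against 12.27 and 11.74 in the control livers at 11 months and 11.87, 12.18 and 12.13 at 14 months. Levels in 7 tumours were 7.86 to 10.16, below every control, and KO_tumor_11M replicate 2 was above every control. The means were 9.17 ± 1.53 in tumours (SD, n = 8) and 12.04 ± 0.22 in controls (SD, n = 5). The fold change was -2.74 (SE 0.67, adjusted p = 0.0167) with all arrays and -3.40 (adjusted p = 0.0005) without that tumour.

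Fdps, which joins isoprenoid units to farnesyl diphosphate, was at 9.95, 11.76 and 9.71 in the tumours at 11 months and at 9.80, 9.90, 8.79, 8.94 and 10.55 at 14 months, against 11.79 and 11.77 in the control livers at 11 months and 12.16, 12.08 and 11.68 at 14 months. KO_tumor_11M replicate 2 lay within the control range, near its lower end, and the other tumours below it. Fdps had a fold change of -1.84 (SE 0.38, adjusted p = 0.0079). Fdps passed whichever single array was omitted.

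Squalene is made by Fdft1, oxidised by Sqle and closed to lanosterol by Lss, and none of the 3 passed with all arrays. Fdft1 ranged from 8.28 to 11.64 in tumours, against 10.80 to 11.45 in controls, Sqle from 8.04 to 11.29 in tumours, against 10.19 to 11.02 in controls, and Lss from 7.5 to 9.98 in tumours, against 9.27 to 9.73 in controls. In each, 7 tumours were below all controls and KO_tumor_11M replicate 2 above all of them. The log2 fold changes were -1.50 (adjusted p = 0.0751) for Fdft1, -1.30 (adjusted p = 0.0513) for Sqle and -1.11 (adjusted p = 0.0528) for Lss. Without that tumour they were -1.88 (adjusted p = 0.0221), -1.68 (adjusted p = 0.00464) and -1.45 (adjusted p = 0.00335) in the same order. Fdft1 also passed without KO_tumor_14M replicate 4 (adjusted p = 0.0367), and Sqle (0.0499) and Lss (0.0428) without KO_tumor_14M replicate 5. In the limma fit of all probe sets, dimmer Lss probe sets had -0.49 (adjusted p = 0.0343) and -1.28 (adjusted p = 0.0672). Dimmer Fdft1 probe sets had -0.27 (adjusted p = 0.0437), -0.22 (adjusted p = 0.181) and -1.50 (adjusted p = 0.0852). With the mean of its probe sets Lss had -0.96 (adjusted p = 0.0331).

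After lanosterol, 8 enzymes of the list remove methyl groups and move or reduce double bonds. Cyp51, the demethylase that acts first, was at 9.03, 10.91 and 7.29 in the tumours at 11 months and at 7.04, 7.47, 6.83, 8.51 and 8.83 at 14 months, against 10.81 and 10.18 in the control livers at 11 months and 10.27, 10.57 and 10.54 at 14 months, and 7 tumours lay below every control. Its fold change was -2.07 (SE 0.55, adjusted p = 0.0232). Tm7sf2, a sterol reductase, was at 9.58, 10.55 and 7.52 in the tumours at 11 months and at 7.23, 7.93, 7.0, 9.64 and 7.99 at 14 months, against 10.75 and 11.14 in the control livers at 11 months and 11.16, 10.77 and 10.89 at 14 months. All 8 tumours lay below all controls for Tm7sf2, KO_tumor_11M replicate 2 by the smallest margin, with a fold change of -2.36 (SE 0.53, adjusted p = 0.0111).

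Msmo1, the methyl sterol oxidase, was at 9.64, 12.41 and 8.60 in the tumours at 11 months and at 8.60, 9.70, 8.30, 9.25 and 10.36 at 14 months, against 12.45 and 11.85 in the control livers at 11 months and 11.78, 12.11 and 12.49 at 14 months. KO_tumor_11M replicate 2 was within the control range and the other 7 tumours below it, and the fold change was -2.41 (SE 0.58, adjusted p = 0.0148). Nsdhl, the dehydrogenase that acts after Msmo1 and strips the carboxyl group, was at 8.56, 11.06 and 8.21 in the tumours at 11 months and at 7.77, 8.27, 7.69, 8.71 and 8.94 at 14 months, against 11.20 and 11.01 in the control livers at 11 months and 10.94, 10.85 and 10.94 at 14 months. The same 7 tumours were below all controls and the same tumour within their range. The fold change of Nsdhl was -2.23 (SE 0.43, adjusted p = 0.00558), and -2.68 (adjusted p = 6.94e-05) without that tumour.

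Hsd17b7, the reductase that completes the demethylation, ranged from 7.58 to 10.23 in tumours, against 9.94 to 10.38 in controls. KO_tumor_11M replicate 1 (9.93) lay just under the controls and KO_tumor_11M replicate 2 (10.23) within them. Its fold change was -1.34 (SE 0.41, adjusted p = 0.0388). Ebp, the isomerase that shifts a double bond, ranged from 10.16 to 11.63 in tumours, against 11.77 to 11.91 in controls, without overlap, and fell by 0.84 on the log2 scale (SE 0.24, adjusted p = 0.0337).

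The enzymes near the end of the arm had fold changes that did not pass with all arrays. Sc5d, the desaturase, ranged from 10.66 to 12.55 in tumours, against 11.89 to 12.71 in controls, and its fold change was -0.74 (adjusted p = 0.0848), or -0.96 (adjusted p = 0.0171) without KO_tumor_11M replicate 2. Dhcr7, the reductase that finishes the ring, was at 8.61, 10.27 and 9.75 in the tumours at 11 months and at 10.33, 10.72, 10.01, 8.82 and 10.81 at 14 months, against 10.64 and 10.59 in the control livers at 11 months and 10.44, 10.41 and 10.36 at 14 months. KO_tumor_11M replicate 1 and KO_tumor_14M replicate 4 were lowest, KO_tumor_14M replicates 2 and 5 lay above all controls, and KO_tumor_11M replicate 2 lay below them. Dhcr7 had a fold change of -0.67 (adjusted p = 0.192) and a 95% interval of -1.44 to 0.10.

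**Figure D2:**
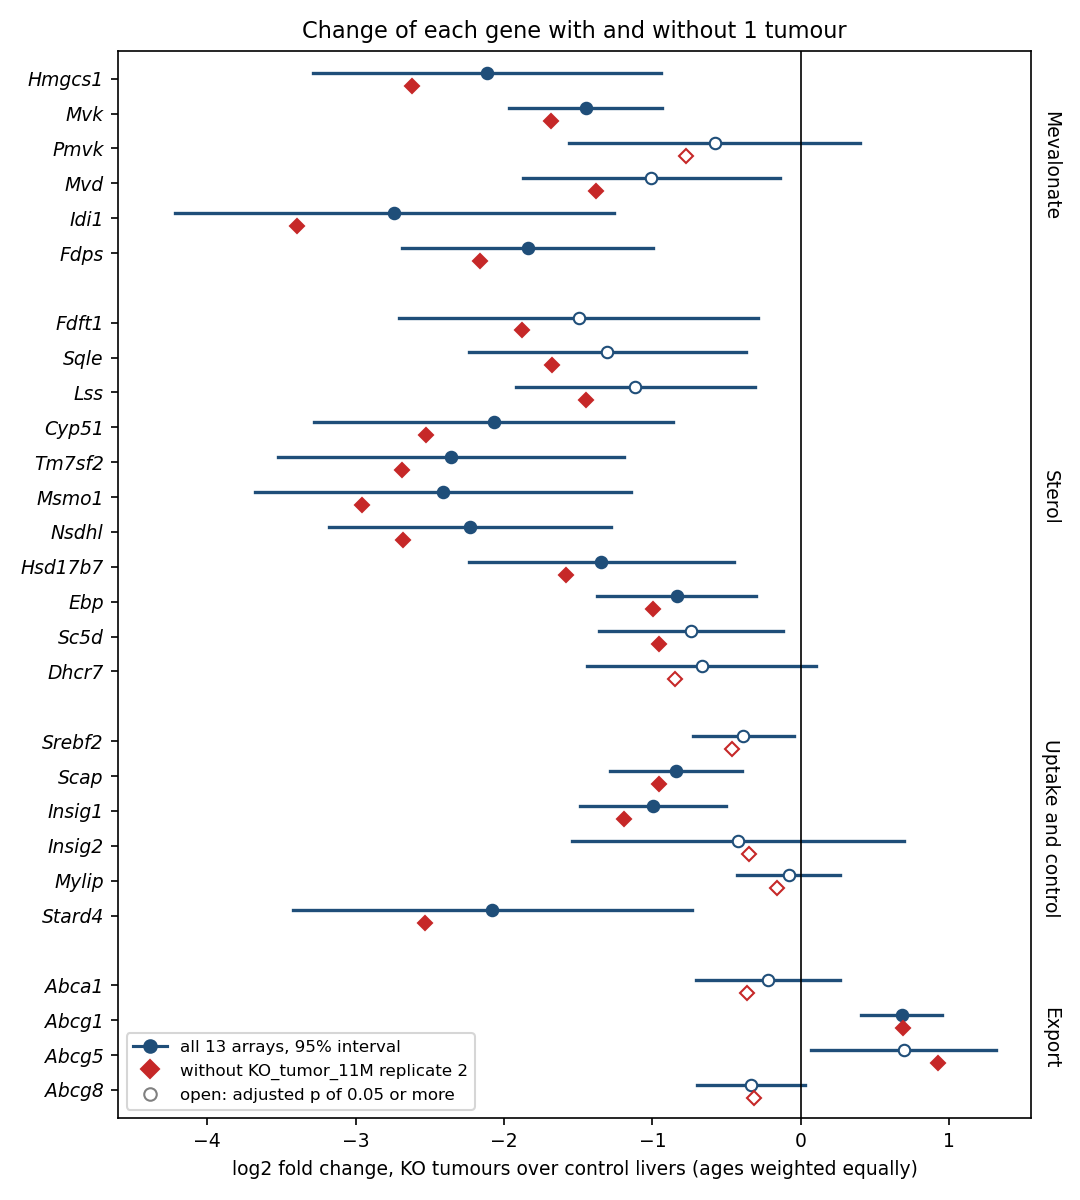
Log2 fold change of each gene in knockout tumours over control livers, with its 95% interval, from all 13 arrays (blue) and without KO_tumor_11M replicate 2 (red); open symbols have an adjusted p of 0.05 or more. All 17 synthesis genes lie left of 0 in both, and the red symbols of all of them lie farther left.

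Fewer genes passed without some control livers, among the 27 and among all genes. Without control_liver_11M replicate 1, 7 of the 27 genes passed, where 10.8% of all genes did. Without control_liver_11M replicate 2, 5 passed, where 9.97% of all genes did, against 20.1% with all arrays. In these fits 1 array stood for the controls at 11 months, assumed to vary like the other groups. Lost without replicate 1 were Hmgcs1 (adjusted p = 0.0783), Idi1 (0.0708), Cyp51 (0.095), Msmo1 (0.0677), Hsd17b7 (0.135), Ebp (0.0895) and Stard4 (0.125). Lost without replicate 2 were Hmgcs1 (0.0568), Idi1 (0.0533), Cyp51 (0.0614), Tm7sf2 (0.0535), Hsd17b7 (0.0868), Ebp (0.109), Scap (0.0687), Insig1 (0.0536) and Stard4 (0.0829). Cyp51 was also lost without control_liver_14M replicate 2 (0.0505). Hsd17b7 and Stard4 passed in 5 of the 13 fits that each left out 1 array, and Ebp in 7. All 3 genes were also lost without any one control at 14 months and without KO_tumor_14M replicate 1, and Hsd17b7 and Stard4 without KO_tumor_14M replicate 2 or 3, with adjusted p from 0.0522 to 0.0733. Mvk, Fdps, Nsdhl and Abcg1 passed in all 13.

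The arrays of control_liver_14M replicate 3 and control_liver_11M replicate 1 had a correlation of 0.9948 across probe sets. In this pair 63 probe sets were more than 2-fold apart, while other control pairs had 485 to 1315. They carry different ages in the labels and were kept as 2 samples. Without both, 2 of the 27 genes passed, Mvk and Abcg1, where 3.18% of all genes fell and 4.34% rose. All 14 genes that passed with all arrays kept their direction without the pair, and their fold changes moved by less than 1.5 times. Idi1 stood at -2.59 (adjusted p = 0.115), Nsdhl at -2.18 (adjusted p = 0.0564) and Fdps at -1.91 (adjusted p = 0.0564). Among the genes that had not passed, Insig2 stood at -0.70, Abcg8 at -0.13 and Mylip at 0.01.

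**Figure D3:**
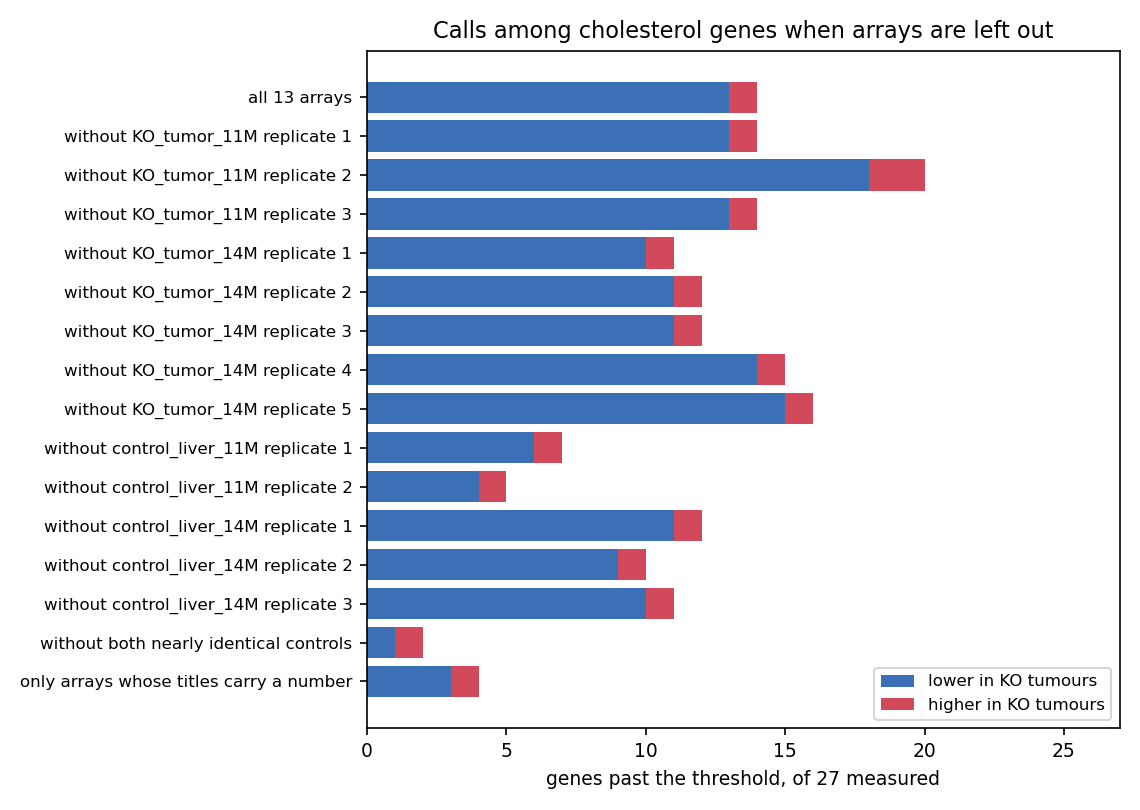
Number of the 27 genes that passed the test with the ages combined, lower (blue) and higher (red) in knockout tumours, for all 13 arrays and with arrays left out. The count is 14 with all arrays, 20 without KO_tumor_11M replicate 2, 5 without control_liver_11M replicate 2 and 2 without both nearly identical controls.

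Tumours also differed among themselves more than controls did. The SD over the 8 tumours was larger than that over the 5 controls for 26 of the 27 genes and for all 17 synthesis genes, and for 73.3% of all genes. The median SD of the 27 genes was 0.93 in tumours and 0.2 in controls. Over all genes it was 0.25 in tumours and 0.16 in controls. KO_tumor_11M replicate 2 is part of the spread of tumours. The 5 controls include the nearly identical pair, and each SD is taken over both ages.

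Synthesis genes are known to share short promoter elements, so the promoters of genes that fell are shown. The RefSeq promoter table (GRCm38.p6) held 22 of the 27 genes, 14 of them synthesis genes, and the 250 bases before each start were searched on both strands. Capitals mark the CCAAT box, bound by the factor NF-Y, on either strand. They also mark TCACNCCAC, a form of the sterol regulatory element bound by the protein of Srebf2. Hmgcs1, Idi1 and Msmo1 had large falls in the synthesis arms, and Insig1 is the feedback gene described below. Tm7sf2 (-2.36) and Nsdhl (-2.23), whose promoters are not shown, fell more than Hmgcs1 (-2.11). Sequences run 5′ to 3′ on the gene's strand, which is minus for Msmo1 and plus for the others.
Hmgcs1, chr13:119690101-119690350: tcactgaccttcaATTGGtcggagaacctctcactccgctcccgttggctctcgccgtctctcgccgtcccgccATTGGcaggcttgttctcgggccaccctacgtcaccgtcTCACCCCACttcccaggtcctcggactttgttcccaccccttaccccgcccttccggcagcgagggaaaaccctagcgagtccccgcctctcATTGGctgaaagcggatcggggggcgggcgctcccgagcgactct
Idi1, chr13:8885356-8885605: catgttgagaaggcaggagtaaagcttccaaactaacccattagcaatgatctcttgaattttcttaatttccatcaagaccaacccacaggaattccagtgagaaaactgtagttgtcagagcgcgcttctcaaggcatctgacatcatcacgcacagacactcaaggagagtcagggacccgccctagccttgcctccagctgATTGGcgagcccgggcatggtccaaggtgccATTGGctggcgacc
Msmo1, chr8:64733579-64733828: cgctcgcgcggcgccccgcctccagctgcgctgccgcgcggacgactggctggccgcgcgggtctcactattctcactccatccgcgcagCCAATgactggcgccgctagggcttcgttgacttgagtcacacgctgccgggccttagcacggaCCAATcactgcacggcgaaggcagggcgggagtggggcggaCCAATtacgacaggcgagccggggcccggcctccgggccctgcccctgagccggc
Insig1, chr5:28071162-28071411: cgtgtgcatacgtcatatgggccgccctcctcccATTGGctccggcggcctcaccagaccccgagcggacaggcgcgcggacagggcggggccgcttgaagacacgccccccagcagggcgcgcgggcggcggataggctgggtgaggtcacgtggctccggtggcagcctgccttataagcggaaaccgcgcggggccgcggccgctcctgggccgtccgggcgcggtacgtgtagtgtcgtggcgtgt

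CCAAT was present in 14 of the 14 synthesis genes and in 19 of the 22 genes of the list. It was present in 37.5% of the 27025 genes of the table and in 39.4% of the 14452 of them on the arrays. The 4 promoters shown hold 3 matches in Hmgcs1, 2 in Idi1, 3 in Msmo1 and 1 in Insig1. The GC-rich box GGGCGG, whose matches overlap no match of the other motifs in the 4 promoters shown, was in 13 of 14 synthesis genes, in 35.4% of all genes of the table and in 53.4% of those on the arrays. TCACNCCAC was in 1 of the 22 genes, Hmgcs1, and in 1.2% of all genes of the table. A match is a description of the letters, and genes that did not pass the test, such as Pmvk and Dhcr7, hold CCAAT too.

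Among the genes of uptake and control, Scap, Insig1 and Stard4 fell and Srebf2 itself did not pass. Srebf2, which makes the transcription factor, ranged from 7.42 to 8.19 in tumours, against 8.05 to 8.34 in controls, with a fold change of -0.39 (adjusted p = 0.0959) and a 95% interval of -0.73 to -0.05. Of the 8 tumours 7 lay below all controls, the exception being KO_tumor_11M replicate 2. Another Srebf2 probe set, with a mean level of 7.43 against 7.96, had a fold change of -0.06 (adjusted p = 0.889 in the limma fit of all probe sets). Scap, the escort that carries the factor out of the endoplasmic reticulum, was at 9.68, 9.85 and 8.62 in the tumours at 11 months and at 9.44, 9.63, 9.20, 9.87 and 9.22 at 14 months, against 10.29 and 10.49 in the control livers at 11 months and 10.11, 10.28 and 10.03 at 14 months. All tumours lay below all controls, and the fold change was -0.84 (SE 0.20, adjusted p = 0.0154). A second, dimmer Scap probe set had a fold change of -0.02 (adjusted p = 0.954), and the mean of both had -0.43 (adjusted p = 0.111).

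Insig1 and Insig2 make the proteins that retain Scap, and Insig1 passed while Insig2 did not; the difference between them was not tested. Insig1, itself a target of the Srebf2 factor, was at 9.25, 9.94 and 8.32 in the tumours at 11 months and at 8.83, 8.64, 8.64, 8.86 and 9.13 at 14 months, against 9.88 and 10.07 in the control livers at 11 months and 9.97, 10.21 and 9.87 at 14 months. In 7 tumours it was below all controls, and in KO_tumor_11M replicate 2 it lay within them. Insig1 had a fold change of -1.0 (SE 0.22, adjusted p = 0.011), and -1.19 (adjusted p = 0.00121) without that tumour.

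Insig2 was at 12.34, 11.18 and 10.90 in the tumours at 11 months and at 10.50, 10.20, 10.40, 12.91 and 9.92 at 14 months, against 11.21 and 11.88 in the control livers at 11 months and 12.48, 11.06 and 11.14 at 14 months. KO_tumor_11M replicate 1 and KO_tumor_14M replicate 4 were high, and so was 1 control, control_liver_14M replicate 1, while 5 tumours lay below all controls. The groups overlapped, and the fold change of -0.43 (adjusted p = 0.569) had a 95% interval of -1.54 to 0.69.

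Stard4, a carrier that moves sterol between membranes, was at 9.54, 10.97 and 6.95 in the tumours at 11 months and at 7.70, 7.40, 6.97, 9.32 and 8.61 at 14 months, against 10.98 and 10.37 in the control livers at 11 months and 10.25, 10.70 and 10.95 at 14 months. KO_tumor_11M replicate 2 was within the control range and the other 7 tumours below it. Stard4 had a fold change of -2.08 (SE 0.61, adjusted p = 0.0353). Mylip, a ubiquitin ligase that removes lipoprotein receptors, ranged from 7.47 to 8.41 in tumours, against 7.74 to 8.24 in controls, and its fold change of -0.08 (adjusted p = 0.733) changed sign under 3 of the 24 alternatives.

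**Figure D4:**
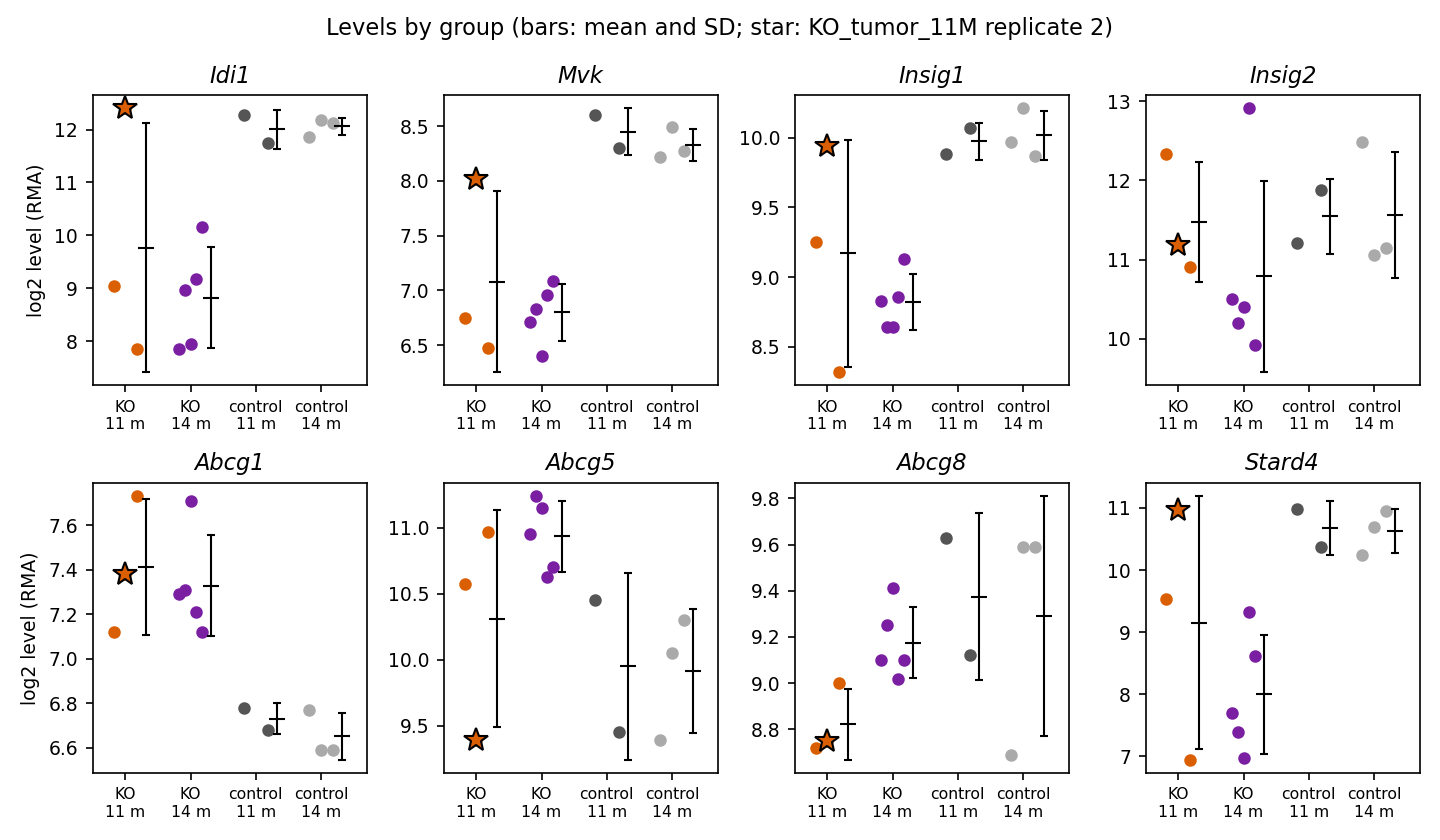
Log2 levels of 8 of the genes on every array, by group, with knockout tumours left of control livers; points are arrays, black bars the mean and SD, and the star is KO_tumor_11M replicate 2. The star lies within the control range for Insig1 and Stard4, just above it for Idi1, and with the other tumours for Abcg1.

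Of the export genes 1 rose and none fell. Abcg1, a transporter that loads cholesterol onto lipoproteins, was at 7.12, 7.38 and 7.73 in the tumours at 11 months and at 7.29, 7.31, 7.71, 7.21 and 7.12 at 14 months, against 6.78 and 6.68 in the control livers at 11 months and 6.77, 6.59 and 6.59 at 14 months. All 8 tumours were above all controls, KO_tumor_11M replicate 2 among them. The fold change was 0.68 (SE 0.13, adjusted p = 0.00439) with a 95% interval of 0.40 to 0.95, and 0.69 (adjusted p = 0.00685) without that tumour. A dimmer second probe set of Abcg1 had a fold change of 0.05 (adjusted p = 0.871), and with the mean of both the call was lost (adjusted p = 0.0879). Abcg1 is also made in macrophages, 2 of whose 8 markers were higher in tumours, Cd68 by a log2 fold change of 1.94 and Lyz2 by 1.64. The other 6 did not pass, 3 of them with negative fold changes: -2.16 (adjusted p = 0.0624) for Clec4f, -1.28 (adjusted p = 0.23) for Cd5l and -1.09 (adjusted p = 0.18) for Marco. The part of these markers in the Abcg1 level was not tested.

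Abcg5 and Abcg8 form 1 transporter that secretes sterols into bile, and their genes lie head to head. Abcg5 was at 10.57, 9.39 and 10.97 in the tumours at 11 months and at 10.95, 11.24, 11.15, 10.63 and 10.70 at 14 months, against 10.45 and 9.45 in the control livers at 11 months and 9.39, 10.05 and 10.30 at 14 months. In 7 tumours it was above all controls, and KO_tumor_11M replicate 2 was level with the lowest control. The fold change was 0.69 (adjusted p = 0.105) with a 95% interval of 0.07 to 1.32, and 0.92 (adjusted p = 0.0173) without that tumour. Abcg8 was at 8.72, 8.75 and 9.0 in the tumours at 11 months and at 9.10, 9.25, 9.41, 9.02 and 9.10 at 14 months, against 9.63 and 9.12 in the control livers at 11 months and 8.69, 9.59 and 9.59 at 14 months. All 8 tumours lay inside the control range, and the fold change was -0.33 (adjusted p = 0.17). Without control_liver_14M replicate 1, the lowest control, the fold change of Abcg8 was -0.48 (adjusted p = 0.0253). The partners thus had fold changes of opposite sign, and the difference between them was not tested.

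The starts of the pair are 109 bases apart, and the bases between them, which lie upstream of both, are shown because the genes share them while their fold changes differ in sign. They hold 0 matches to each of the 3 motifs.
Between Abcg5 and Abcg8, plus strand, chr17:84683012-84683120: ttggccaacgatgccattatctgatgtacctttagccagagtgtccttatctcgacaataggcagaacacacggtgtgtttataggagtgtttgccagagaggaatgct

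Abca1, which passes cholesterol to newly made lipoproteins, ranged from 10.49 to 11.71 in tumours, against 11.25 to 11.56 in controls, and its fold change was -0.22 (adjusted p = 0.49). The 4 export genes thus held 1 rise, 1 change that passed only without KO_tumor_11M replicate 2 and 2 that did not pass with or without it.

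At 14 months 12 of the 27 genes fell and 1, Abcg1, rose, where 6.88% of all genes fell and 8.37% rose, 15.3% in all. The 12 were Hmgcs1, Mvk, Idi1, Fdps, Sqle, Cyp51, Tm7sf2, Msmo1, Nsdhl, Hsd17b7, Insig1 and Stard4. The median log2 fold change at this age was -1.40 over the 27 genes and -0.06 over all genes. All 5 tumours were below all 3 controls for 19 genes, against 14.2% of all genes, and above them for 2, Abcg1 and Abcg5, against 13% of all genes. Idi1 had the most negative fold change, -3.24 (adjusted p = 0.0275), followed by Tm7sf2, -2.98 (adjusted p = 0.0153). Without control_liver_14M replicate 2 the count was 3, where 5.15% of all genes passed. It was 4 without control_liver_14M replicate 1 or replicate 3, where 5.07% and 6.85% of all genes passed. It was 7 without KO_tumor_14M replicate 1 (10.8% of all genes), and 8 without replicate 2 (10.1%) or replicate 3 (12%).

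At 11 months 0 of the 27 genes passed in the limma fit, where 0.61% of all genes fell and 1.31% rose, 1.92% in all. In that fit the unadjusted p was under 0.05 for 6 of the 27 genes, and for 2998 of the 18193 on the arrays. The 27 genes had a median log2 fold change of -0.85. The 3 tumours were below both controls for 7 genes, against 19.7% of all genes, and above them for 1, against 13.9%. Without KO_tumor_11M replicate 2, Hmgcs1, Mvk, Idi1, Msmo1, Nsdhl and Insig1 fell, 6 of 27, where 1.85% of all genes fell. Idi1 then had a fold change of -3.55 (adjusted p = 0.0197) from 2 tumours against 2 controls.

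Whether the ages differ was tested directly. The difference between the fold change at 14 and that at 11 months passed for 0 of the 27 genes and for 0% of all genes, and 0 of the 27 had an unadjusted p under 0.05 against 544 of all genes. The median of that difference was -0.71 over the 27 genes. For Idi1 it was -1.01 with a 95% interval of -3.96 to 1.95, and for Abcg1 0.00 with -0.55 to 0.55. Tumours at 14 months against tumours at 11 months passed for 0 of the 27 genes, with 0 at an unadjusted p under 0.05, and for 1 of all genes, 0.0055%. The median of these fold changes was -0.65.

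Of 48 other genes of the pathway, 38 were measured. The 48 were chosen by role, with earlier results of these data known. Of the 38, 2 rose and 9 fell, with a median fold change of -0.26, where 10.3% of all genes rose and 9.81% fell. Most of the falls, 6 of 8 measured genes, were in the list of enzymes that turn cholesterol into bile acids, whose median was -1.55. Of the 6, Hsd3b7 (-1.21, adjusted p = 0.0469) and Baat (-1.24, adjusted p = 0.0113) lie outside the rule for named genes. Hsd3b7 passed in 2 of the 13 fits that left out 1 array, and Baat in 12. Without KO_tumor_11M replicate 2, 7 of the 8 fell, where 10.3% of all genes fell. Cyp8b1, the hydroxylase that sets the balance of bile acids, ranged from 5.5 to 9.94 in tumours, against 9.75 to 11.28 in controls and had a fold change of -2.53 (adjusted p = 0.0342). Cyp7b1, an oxysterol hydroxylase, ranged from 10.28 to 12.27 in tumours, against 13.02 to 13.47 in controls, without overlap, with -1.77 (adjusted p = 0.00899). Slc27a5, which activates bile acids, had -1.61 (adjusted p = 0.0064), and Cyp27a1, which opens the acidic pathway, -1.58 (adjusted p = 0.0369). Cyp7a1, the rate-limiting enzyme of bile acid synthesis, did not pass, at -1.53 (adjusted p = 0.0713), and had -1.84 (adjusted p = 0.0356) without KO_tumor_11M replicate 2. Cyp7b1 and Slc27a5 passed in all 13 fits that left out 1 array, whereas Cyp8b1 passed in 6 of 13 such fits and Cyp27a1 in 4, the highest adjusted p being 0.111 and 0.114, each without control_liver_11M replicate 2.

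Among the other synthesis and branch genes, Ggps1, which makes a longer isoprenoid, rose by 0.50 (adjusted p = 0.0342), and Erg28, a scaffold of the sterol demethylating enzymes, had -1.30 (adjusted p = 0.0374); Cyb5r3 had -0.54 (adjusted p = 0.0506). Ggps1 and Erg28 each passed with 5 of 13 arrays left out in turn, with a highest adjusted p of 0.109 and 0.113, each without control_liver_11M replicate 1. Among the other control genes Erlin2, a protein of the endoplasmic reticulum that binds Insig and Scap, rose. It was at 8.60, 8.76 and 9.01 in the tumours at 11 months and at 8.95, 9.26, 8.96, 8.79 and 9.01 at 14 months, against 7.81 and 8.09 in the control livers at 11 months and 7.66, 7.88 and 7.80 at 14 months, without overlap, with a fold change of 1.03 (SE 0.11, adjusted p = 0.000191), and passed with each array left out. Srebf1 had -0.47 (adjusted p = 0.272). In the list of other uptake, trafficking and efflux genes, Lcat, which esterifies cholesterol on lipoproteins, had -1.05 (adjusted p = 0.0115) and the receptor Lrp1 -0.83 (adjusted p = 0.0134), while the intestinal sterol importer Npc1l1 had 1.11 (adjusted p = 0.0822). The adjusted p of Lcat was 0.0504 without control_liver_11M replicate 1, and that of Lrp1 0.0711 without control_liver_11M replicate 2. With the mean of its probe sets Lrp1 had -0.30 (adjusted p = 0.498).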

How the data were processed

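Total RNA of 13 samples was hybridised to one-colour Affymetrix arrays after biotin labelling of cRNA from 6 ug, per the labels' protocols. The authors deposited log2 values and the submitters' processing notes name RMA and Partek; the sources used here give no version, background setting or array run. That the scale is log2 follows from their range, with array medians of 5.13 to 5.22. Of 45101 probe sets, 34945 named 1 gene, 932 several, 9160 none and 64 were array controls. Each of 18193 genes was represented by its probe set with the highest mean, and no filter on level was used.

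The 4 group means were fitted together over the 13 arrays with limma (version 3.58.1, R version 4.3.3), using lmFit, then eBayes with 2.314 prior degrees of freedom. Benjamini-Hochberg adjustment covered the 18193 genes, and adjusted p under 0.05 passed. A fold change over both ages is the mean of the fold changes at 11 and at 14 months, so it can differ from the gap between the means over arrays. Named genes are all measured genes of the list, and of the other pathway genes up to 4 per list and direction past the threshold plus the largest change that did not pass. Promoters are from RefSeq (GRCm38.p6). Members and lists were chosen with earlier results of these data known. With 2 to 5 arrays per group, their number limits the precision. Alternatives were other choices of probe set, normalisation, variance prior, array weights, level filter, age term and arrays left out. Python 3.11.15 handled tables (pandas 2.3.3, numpy 2.4.6) and plots (matplotlib 3.10.9).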

Additional observations from a re-analysis of the deposited data

Results flagged for a closer look

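The 27 genes were examined for single arrays far from the rest in the 5 tumours at 14 months, the one group with over 3 arrays, and 2 met that test; chance flags about 1 in 20 groups. Insig2 was at 12.91 in KO_tumor_14M replicate 4, against 10.50 in the next tumour and 9.92 in the lowest. Sc5d was at 11.84 in KO_tumor_14M replicate 5, against 11.30 in the next and 11.10 in the lowest.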

How the results depend on the processing

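No paired analysis was possible because the replicate numbers follow sample order and mark no shared animal or litter. With the ages combined, 14 of the 27 genes passed, and leaving out each array in turn gave 5 to 20. The count was 2 without both nearly identical controls and 4 with only arrays whose titles carry a number, which leave out 2 and 3 arrays. Of the 14 genes, 1 passed in all 24 alternatives. No gene of the 27 changed sign except Mylip, which ranged from -0.16 to 0.0101 with arrays left out (0.0101 without KO_tumor_11M replicate 3), and was at 0.00705 without both nearly identical controls and at 0.00195 with numbered titles only. For the other pathway genes (11 with all arrays), for which alternatives were added after seeing the data, the count was 4 to 15 with arrays left out, 17 with array weights, 3 without the nearly identical controls and 4 with numbered titles only. At 11 months the count was 0, and 0 to 6 with arrays left out. At 14 months it was 13, and 3 to 18 with arrays left out. It was 20 with array weights, 8 with KO_tumor_14M replicates 1 and 2 averaged and 2 without the nearly identical controls. It was 0 with numbered titles only and 20 with only the arrays compared. The share of all genes that passed was not counted under array weights, averaging, numbered titles or only the arrays compared. Nor was it counted at 14 months without the nearly identical controls or without KO_tumor_11M replicate 2, which gave the count of 18. With the ages combined it was not counted without KO_tumor_14M replicate 4, where 15 of the other pathway genes passed. Whether these moves are particular to the genes of the lists was not tested. The cause of these moves was not tested. Difference between ages and tumours at 14 against 11 months gave 0 genes under every alternative run. Repeating quantile normalisation gave 17 genes, with 1707 of all genes higher and 2130 lower, against 1872 and 1785 with the deposited values. Shifting arrays to 1 median gave 14, with 1894 of all genes higher and 1710 lower. Both moved the median of all genes by under 0.01.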

Other observations

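Scarb1, the lipoprotein receptor that takes up cholesterol esters and falls outside the rule for named genes, was singled out after its values were seen. It was at 11.81, 10.18 and 11.81 in the tumours at 11 months and at 12.10, 11.51, 12.76, 10.49 and 11.31 at 14 months, against 10.37 and 10.48 in the control livers at 11 months and 10.42, 10.34 and 10.09 at 14 months. The 7 tumours other than KO_tumor_11M replicate 2 were above all controls, and that tumour was within their range. The fold change was 1.09 (adjusted p = 0.0645) with all arrays and 1.37 (adjusted p = 0.0174) without that tumour.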
